A study of Mus musculus with 8 samples.

Results

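Hr and its 3 paralogs Kdm3a, Kdm3b and Jmjd1c were followed in the nuclear RNA of cortical GABAergic neurons, the inhibitory neurons of the cortex. These 4 genes were taken by symbol out of 55341 gene symbols in the count files. Hr was chosen because it differed strongly between the groups compared here and the other 3 because they belong to its family, so all values of the 4 genes in this comparison are descriptions without a test. The mice were juvenile and carried a reporter transgene that Cre recombinase switches on in GABAergic neurons and that gives these cells a fluorescent nucleus; the labels name neither the Cre line nor the exact age. All 8 mice were hypothyroid, because their mothers had received propylthiouracil (PTU), which stops the thyroid from making its hormones, while pregnant. In the PTU group (mice 9 to 12, n = 4) nothing was added, and the PTU+TH group (mice 13 to 16, n = 4) had an intraperitoneal injection of thyroid hormone (TH) 24 h before the brains were collected. Euthyroid mice were not analysed here, so a value in PTU+TH cannot be placed against a normal level.

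Hr encodes hairless, a nuclear protein that binds the thyroid hormone receptors, the vitamin D receptor and the ROR receptors and recruits histone deacetylases to repress their targets. It is named after mice that lose their hair when it is mutated, and in the developing brain it is a classic gene induced by TH. It shares with Kdm3a, Kdm3b and Jmjd1c a JmjC domain, the fold of enzymes that remove methyl groups from histones. The KDM3 enzymes act on lysine 9 of histone H3 (H3K9), where methylation marks silent chromatin. Jmjd1c was also isolated as a partner of the thyroid hormone receptor.

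Library totals lay between 21762810 and 29084071 counts. The 5 detected markers of GABAergic neurons summed to between 2448 and 2883 CPM (counts scaled to a common library size) in PTU libraries and between 2286 and 2486 CPM in PTU+TH libraries, against 37.1 to 120 CPM for 7 markers of excitatory neurons. The summed markers of excitatory neurons, astrocytes, oligodendrocytes, their precursors, microglia and endothelium overlapped between the groups. Of the 35 tested markers 0 were called by edgeR or DESeq2 (edgeR called 2.12% of all tested genes), and 3 had an unadjusted p under 0.05, which 12.8% of all tested genes reached. These were the GABAergic marker Dlx6os1, whose groups did not overlap (204 to 275 CPM in PTU, 188 to 196 in PTU+TH), Mobp of oligodendrocytes and C1qa of microglia, the last 2 with log2 fold changes of 1.30 and 1.09. They are named because of these values, and their part in the results was not tested. Mobp had 12.9 CPM in PTU+TH mouse 15, against 3.40 to 4.81 CPM in the rest of that group. Astrocyte markers summed to between 125 and 366 CPM, oligodendrocyte markers to between 94.2 and 193, endothelial markers to between 32.9 and 148, and microglia and precursor markers to at most 26.8 and 23.2. The highest sums of excitatory neuron, astrocyte, oligodendrocyte, precursor and microglia markers were all in PTU+TH mouse 15. Dlx1, Gfap, Gpr17 and P2ry12 were listed at 0 in all libraries; each lies wholly within other genes, and all 1325 protein-coding genes of that kind were listed at 0. Counts of 4 Y-linked genes were 0 in mice 15 and 16, both PTU+TH, and between 7960 and 11548 in the other 6, so the family genes and some of the other genes are also given without these 2 libraries.

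Hr (chromosome 14, 70552212 to 70573548, plus strand, mouse build GRCm38) shares no base with another annotated gene. It had 61, 48, 43 and 24 counts in PTU mice 9 to 12 and 642, 765, 628 and 518 counts in PTU+TH mice 13 to 16. Scaled by library size, these were 2.22, 1.81, 2.13 and 1.05 CPM without TH and 27.1, 26.3, 28.5 and 24.7 CPM with it. The groups were far apart: the lowest library with TH stood 11.1-fold above the highest library without it. The means were 1.80 ± 0.53 and 26.6 ± 1.62 CPM (SD, n = 4 each), a 14.7-fold difference (log2 fold change 3.88, standard error 0.20).

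The 4 PTU+TH libraries were close to one another, the highest being 1.16-fold above the lowest, while PTU libraries spanned 2.12-fold. The coefficient of variation of Hr was 29.5% in PTU, where counting error alone gives 15.1%, and 6.06% in PTU+TH, where it gives 3.96%. Mouse 12 was the lowest of the PTU libraries, and without it the log2 fold change was 3.70. Without mice 15 and 16 it was 3.88. In bulk nuclei, a larger number of cells that transcribe Hr and more Hr RNA per cell cannot be told apart. Among all genes tested, the mean CPM of Hr, not scaled for gene length, was above that of 20.0% of genes in PTU and 59.4% in PTU+TH.

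Kdm3a (chromosome 6, 71588972 to 71632990, minus strand), a demethylase of H3K9 known from sperm development and energy metabolism, did not share this pattern. Its level was 54.6, 62.2, 54.2 and 59.4 CPM in PTU mice 9 to 12 and 54.9, 50.7, 44.5 and 45.8 CPM in PTU+TH mice 13 to 16. Of the PTU+TH libraries, 3 were below every PTU library and mouse 13 was within the PTU range, so the groups overlapped. The means were 57.6 ± 3.90 and 49.0 ± 4.79 CPM (SD, 4 mice per group), with a log2 fold change of -0.23 and a standard error of 0.10. The lowest libraries were mice 15 and 16, and without them the log2 fold change was -0.12.

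Kdm3b (chromosome 18, 34777047 to 34838660, plus strand), another H3K9 demethylase, was at 58.1, 56.9, 69.2 and 69.8 CPM in PTU mice 9 to 12. In PTU+TH mice 13 to 16 it was at 63.8, 68.4, 62.8 and 53.5 CPM. The ranges of the groups lay over each other, and the lowest of all libraries was PTU+TH mouse 16. Its means were 63.5 ± 6.96 and 62.1 ± 6.25 CPM (SD, 4 mice per group), with a log2 fold change of -0.03 and a standard error of 0.10. The sign of this difference was not stable, as it was 0.06 without mice 15 and 16 and ranged from -0.08 to 0.03 when single libraries were left out. A non-coding gene on the opposite strand overlaps Kdm3b and leaves 89.3% of its body free.

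Jmjd1c (chromosome 10, 67096125 to 67256326, plus strand), a large and more distant relative, had the most counts of the 4 genes. It was at 194, 240, 262 and 253 CPM in PTU mice 9 to 12 and at 269, 267, 249.6 and 268 CPM in PTU+TH mice 13 to 16. Of the PTU+TH libraries, 3 were above every PTU library, and mouse 15 was within the PTU range. The means were 237 ± 30.1 and 264 ± 9.30 CPM (SD, 4 mice per group), with a log2 fold change of 0.15 and a standard error of 0.11. Much of this rested on PTU mouse 9, without which the log2 fold change was 0.07. Its start overlaps Reep3 and its body a small nuclear RNA, both on the opposite strand, and 99.4% of its body is free.

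**Figure D1:**
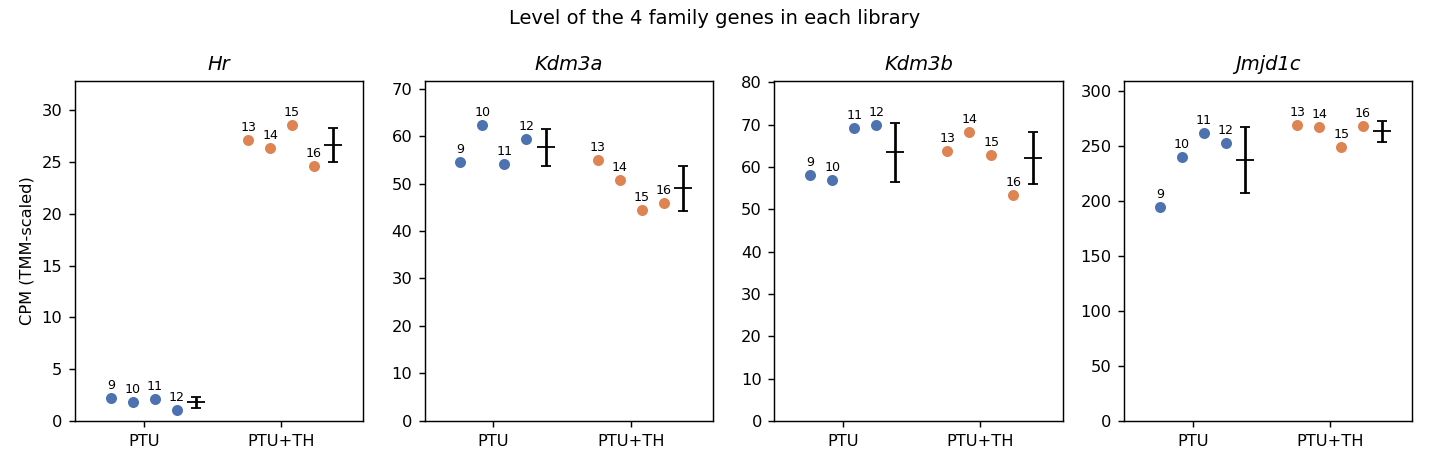
Level of Hr, Kdm3a, Kdm3b and Jmjd1c in CPM (vertical axes, each from 0) in the 4 PTU and the 4 PTU+TH libraries, numbered by mouse; black marks are the group mean and SD. Hr lies between 1.05 and 2.22 CPM in PTU and between 24.7 and 28.5 CPM in PTU+TH, while the groups overlap for the other 3 genes.

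Groups of libraries that did not overlap were thus found for 1 of the 4 family genes, and for 8.71% of all 17355 genes tested (4.68% higher and 4.03% lower in PTU+TH). Since Hr was chosen on this comparison, nothing is read from that count. The quartiles of the log2 fold change over all tested genes were -0.15 and 0.15. Kdm3b and Jmjd1c lay within or at that middle range, Kdm3a just below it, and Hr had the 4th highest log2 fold change of all. The 3 paralogs together summed to 359 ± 36.2 CPM without TH and 375 ± 14.9 CPM with it (SD, n = 4 each). The share of Hr in the summed CPM of the family was 0.51% ± 0.18 in PTU and 6.65% ± 0.51 in PTU+TH, with library values of 0.27% to 0.72% and 6.28% to 7.40%. This share is not scaled for length, and Hr has the shortest gene body of the family, so it does not rank Hr against its relatives.

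Levels of different genes were compared per length. The sources used here do not say whether intronic reads were counted. All 1325 protein-coding genes lying wholly within other genes were listed at 0, beside 21.5% of those free of overlap. Counting over whole gene bodies gives this pattern where reads shared between genes are dropped, but the counting itself was not tested. Both lengths are given, the gene body first: Hr spans 21.3 kb with 6.92 kb of merged exons, Kdm3a 44.0 and 8.23 kb, Kdm3b 61.6 and 14.1 kb, and Jmjd1c 160.2 and 17.8 kb. Per kb of gene body the PTU order was Jmjd1c with 1.48 ± 0.19, Kdm3a with 1.31 ± 0.09, Kdm3b with 1.03 ± 0.11 and Hr with 0.084 ± 0.025 CPM per kb (SD, n = 4 each). The libraries of Jmjd1c and Kdm3a overlapped, those of Kdm3a and Kdm3b did not, and Hr was far below all 3. In PTU+TH the order was Jmjd1c with 1.65 ± 0.06, Hr with 1.25 ± 0.08, Kdm3a with 1.11 ± 0.11 and Kdm3b with 1.01 ± 0.10 CPM per kb (SD, n = 4 each). Here Hr stood below all libraries of Jmjd1c, overlapped Kdm3a and was above all libraries of Kdm3b.

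Per kb of merged exons Hr was the lowest of the 4 in both groups. Its level was 0.26 ± 0.08 CPM per kb of exon without TH and 3.85 ± 0.23 with it, beside 4.41 ± 0.44 for Kdm3b, 5.96 ± 0.58 for Kdm3a and 14.8 ± 0.52 for Jmjd1c in PTU+TH (SD, n = 4 each). On this scale the PTU+TH libraries of Hr and Kdm3b overlapped and the other neighbours in the order did not. The place of Hr among its relatives after TH thus depends on which length is used, while its last place in PTU does not.

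**Figure D2:**
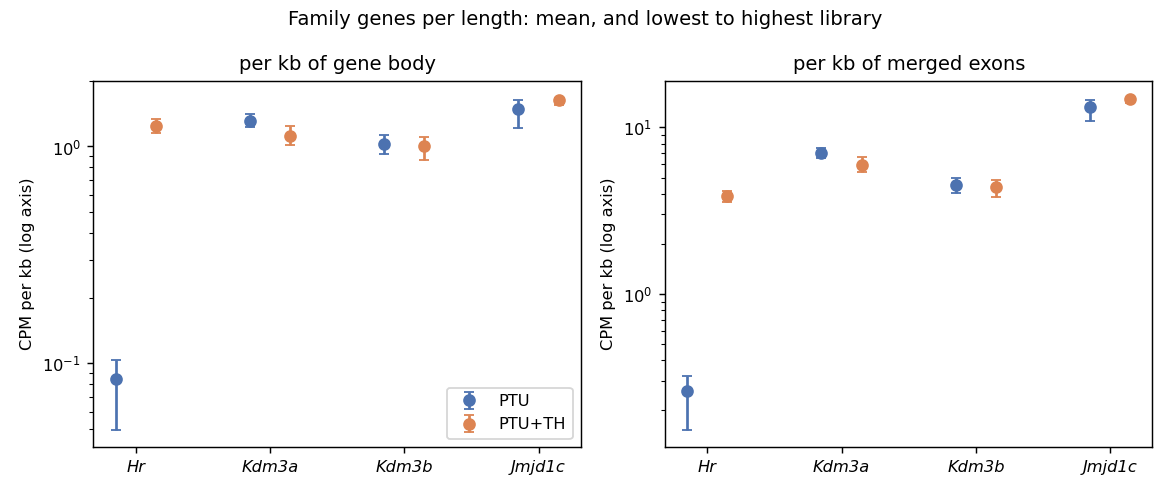
Level of the 4 genes in CPM per kb of gene body (left) and per kb of merged exons (right), on log axes; points are means of 4 libraries and bars run from the lowest to the highest library. Hr in PTU+TH reaches 1.25 CPM per kb of gene body, between Jmjd1c at 1.65 and Kdm3a at 1.11, but stays the lowest of the 4 per kb of exon.

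The genes around each family gene were examined next, which the choice of the 4 genes did not use. Protein-coding genes within 250 kb of either end numbered 39, of which 34 had enough counts to be tested with the edgeR quasi-likelihood test. A gene was called at a Benjamini-Hochberg adjusted p under 0.05 over all 17355 genes, and 2.12% of these were called, 1.49% as higher and 0.634% as lower in PTU+TH. Of the 14 tested neighbours of Hr 1 was called, Lgi3, which lies upstream of Hr. Of the neighbours of Kdm3a, Kdm3b and Jmjd1c, 0 of 7, 0 of 11 and 0 of 2 were called, and DESeq2 also called 0 of them. At an unadjusted p under 0.05, which 12.8% of all tested genes reached, there were 3 of 14 neighbours of Hr and 0, 2 and 1 neighbours of the other 3 genes.

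Lgi3 (chromosome 14, 70530685 to 70538324, plus strand) encodes a secreted leucine-rich protein of the LGI family that is found mainly in brain. It ends 13.9 kb before the start of Hr and shares no base with another gene. Its level was 61.6, 60.7, 59.97 and 57.5 CPM in PTU mice 9 to 12 and 91.2, 85.0, 99.99 and 89.8 CPM in PTU+TH mice 13 to 16. All 4 libraries with TH were above all 4 without, and Lgi3 rose from a mean of 59.9 ± 1.76 to one of 91.5 ± 6.25 CPM (SD, n = 4 each; log2 fold change 0.61, standard error 0.08, edgeR adjusted p = 0.00149). It was called under all 13 alternatives, with adjusted p-values between 6.93e-09 and 0.0472, the last without mice 15 and 16.

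Reep4, which encodes a protein of the endoplasmic reticulum, is the closest neighbour and ends 3.28 kb before Hr. It was at 4.95, 9.41, 4.06 and 4.16 CPM in PTU mice 9 to 12 and at 10.2, 10.3, 11.9 and 8.80 CPM in PTU+TH mice 13 to 16. Mouse 10 stood apart from the other PTU libraries and lay within the PTU+TH range. The log2 fold change was 0.86 (standard error 0.25, edgeR adjusted p = 0.119), and without mouse 10 it was 1.23 with an edgeR adjusted p of 0.0064. DESeq2 also called it with all libraries (adjusted p = 0.0254). Under the other 11 of 13 alternatives Reep4 was not called, with an edgeR adjusted p of up to 0.473, the value without mice 15 and 16.

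The next gene on the other side, Nudt18, starts 4.09 kb after the end of Hr and had a log2 fold change of 0.25 (edgeR adjusted p = 0.538), or 0.16 without PTU mouse 10 and 0.17 without PTU+TH mouse 15. The other 11 tested neighbours of Hr were not called, with edgeR adjusted p-values of at least 0.356. Among them, Piwil2 at 0.50 and Npm2 at -0.61 had the largest log2 fold changes, with means under 2 CPM in each group, and Piwil2 was at 0.87 without PTU mouse 12. Slc39a14, Dmtn and Fam160b2 had log2 fold changes of 0.20, 0.15 and 0.14, and Dok2 of -0.26. The groups of Dmtn did not overlap (214 to 220 CPM in PTU, 230 to 251 in PTU+TH), as for 8.71% of all tested genes. Fam160b2 was at 0.07 without PTU+TH mouse 14 and at 0.30 without mice 15 and 16. Polr3d, Phyhip, Bmp1, Fgf17 and Xpo7 were between -0.04 and 0.04, where the sign of each changed when single libraries were left out, and Sftpc had too few counts to be tested.

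**Figure D3:**
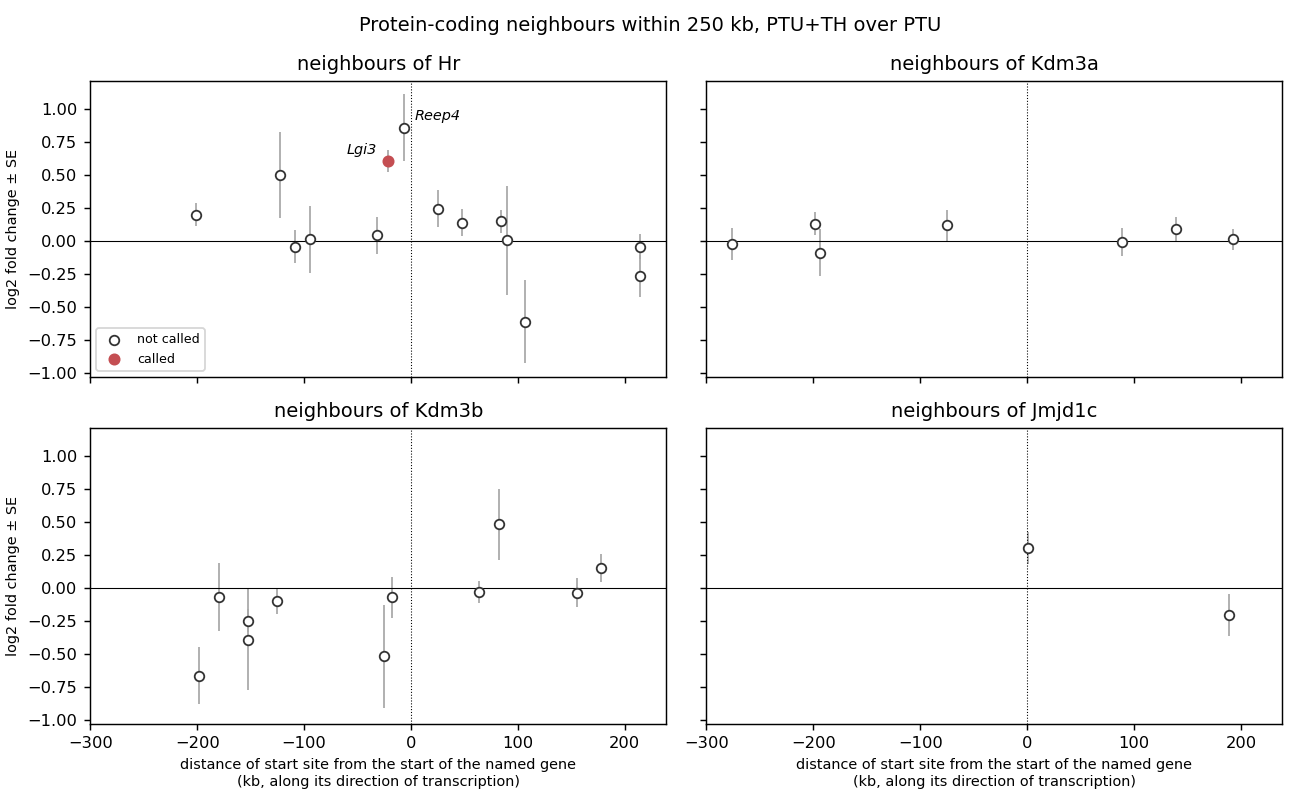
Log2 fold change of PTU+TH over PTU with its standard error (vertical axes) for tested protein-coding neighbours of the 4 genes, against the distance of their start site from that of the named gene (kb, positive in its direction of transcription). Lgi3 at 0.61 is the called neighbour (filled), Reep4 at 0.86 lies between it and Hr, and the neighbours of the other 3 genes were not called.

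Genes that work with or against the family were taken from 6 lists of 64 genes drawn up from general knowledge, of which 60 had enough counts. In edgeR's quasi-likelihood test 0 of the 60 were called, beside 2.12% of all tested genes. At an unadjusted p under 0.05 there were 11, beside 12.8% of all tested genes, and DESeq2 called 3, beside 4.23% of the 17032 genes to which it gave an adjusted p. The median log2 fold change of the 60 genes was -0.06, beside -0.0066 for all tested genes.

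The 9 other enzymes that remove methyl groups from H3K9, the KDM1, KDM4 and PHF groups, had log2 fold changes between -0.30 and 0.24 with a median of -0.13, or -0.04 without mice 15 and 16. Phf2 had the largest change of the list, with 22.6, 22.3, 24.4 and 24.8 CPM without TH and 18.5, 17.9, 20.6 and 19.3 CPM with it. Its groups did not overlap, yet it was not called (adjusted p 0.205 by edgeR at a log2 fold change of -0.30). Kdm4b was the most abundant by CPM, with 177 ± 14.3 and 157 ± 10.4 (SD, 4 mice per group; adjusted p 0.521 by edgeR).

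On the opposing side, 15 tested writers and readers of H3K9 methylation and their cofactors had a median log2 fold change of -0.09, and 0 were called. Ehmt1, a main writer of the mark in neurons, was at 176 ± 24.2 and 179 ± 16.6 CPM (SD, 4 mice per group; adjusted p 0.978 by edgeR). Of the 15, 11 had a log2 fold change below 0 and 4 above. In edgeR 1 had an unadjusted p under 0.05 (12.8% of all tested genes), and for 2 the groups did not overlap (8.71% of all). The largest log2 fold change was that of Mecom, a gene with few counts and a wide spread (log2 fold change 0.32, standard error 0.62, edgeR adjusted p = 0.917). Its sign was not stable: the log2 fold change was -0.38 without PTU+TH mouse 15, -0.35 without mice 15 and 16, and 0.78 without PTU mouse 10. Suv39h1 had too few counts to be tested and overlaps another gene over all but 1.04% of its body.

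The list of other JmjC proteins held 18 genes without the Y-linked Kdm5d and Uty, and 0 of the 16 tested were called. Jmjd7 and Jmjd8 were listed at 0, and other genes cover all but 0.20% of the first and the whole of the second. Kdm6b, which acts on lysine 27 of histone H3, was at 18.8 ± 4.58 and 25.8 ± 2.30 CPM without and with TH (SD, 4 mice per group; log2 fold change 0.45 and adjusted p 0.219 by edgeR). Jarid2, a partner of the Polycomb complex and the most abundant of the list by CPM, was at 184 ± 5.51 and 217 ± 10.4 CPM without and with TH (SD, 4 mice per group; log2 fold change 0.24 and adjusted p 0.24 by edgeR).

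Kdm6a is given because of its values: it had the smallest adjusted p of the JmjC list, 0.060 in edgeR, and was called by DESeq2 (adjusted p = 0.0196) and by edgeR without a filter on low counts (adjusted p = 0.0402). This X-linked gene, which is known to escape X inactivation, was at 44.7, 45.4, 41.9 and 50.3 CPM in PTU mice 9 to 12 and at 56.0, 54.5, 62.4 and 73.6 CPM in PTU+TH mice 13 to 16. Its highest libraries were mice 15 and 16, those without Y-linked counts. Without them its log2 fold change was 0.28 in place of 0.43 (edgeR adjusted p = 0.491).

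Of the nuclear receptors that hairless binds and their RXR partners, 8 of 9 were tested and 0 were called by edgeR, while 3 had an unadjusted p under 0.05 (12.8% of all tested genes). Rxrg was at 11.9, 10.5, 11.0 and 11.5 CPM without TH and at 7.38, 9.14, 4.36 and 7.23 CPM with it, so that its groups did not overlap (adjusted p 0.119 by edgeR at a log2 fold change of -0.67). DESeq2 called Rxrg and Thra as lower (adjusted p = 0.0334 and 0.0392), Thra being given because of that call. Without mice 15 and 16 the log2 fold change of Rxrg was -0.44. Rora, the receptor with the most counts, varied widely between mice, with 516 ± 204 CPM without TH and 663 ± 161 CPM with it (SD, 4 mice per group; adjusted p 0.665 by edgeR). Its log2 fold change was 0.36, between 0.19 (without PTU mouse 9) and 0.61 (without PTU mouse 11) when single libraries were left out, with 0.23 without PTU+TH mouse 16, and 0.03 without mice 15 and 16. Vdr, the receptor through which hairless acts in hair follicles and named here outside the rule for named genes, was scarce, with 0.65 ± 0.32 and 0.78 ± 0.39 CPM (SD, 4 mice per group; adjusted p 0.908 by edgeR).

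All 10 corepressors and deacetylases were tested and 0 were called by edgeR and 0 by DESeq2, while 2 had an unadjusted p under 0.05 in edgeR (12.8% of all tested genes). Hdac3, a histone deacetylase and the most abundant of the list by CPM, was at 417 ± 43.8 and 387 ± 62.1 CPM (SD, 4 mice per group; adjusted p 0.846 by edgeR), with a log2 fold change of -0.11. This was between -0.19 (without PTU+TH mouse 14) and -0.04 (without PTU mouse 12, or PTU+TH mouse 15 or 16) when single libraries were left out, and 0.08 without mice 15 and 16. Sostdc1, an inhibitor of Wnt signalling, and Dkkl1, both listed as repressed by hairless in skin, were each under 1 CPM on average in both groups. Neither was called (log2 fold changes 0.35 and -0.44, edgeR adjusted p = 0.883 and 0.851). The value of Sostdc1 was 1.22 without PTU mouse 9 and -0.06 without mice 15 and 16, and that of Dkkl1 was -0.04 without PTU+TH mouse 14 and -1.30 without mice 15 and 16.

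**Figure D4:**
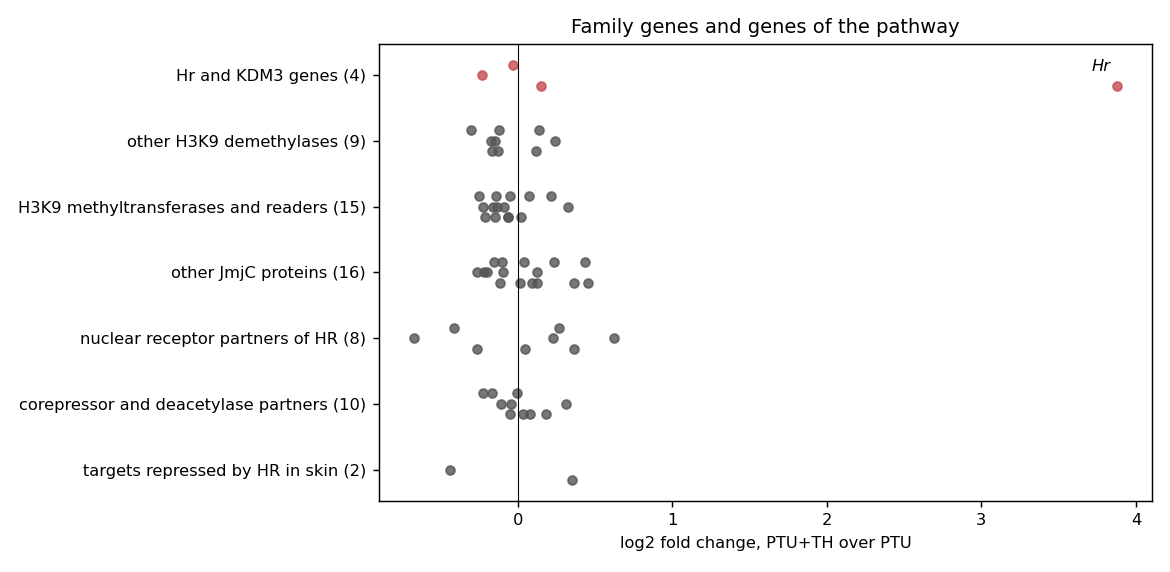
Log2 fold change of PTU+TH over PTU (horizontal axis) for the 4 family genes (red) and the tested genes of the 6 lists (grey, number in brackets). All listed genes lie between -0.67 and 0.62 and none was called by edgeR, while Hr is at 3.88; the vertical scatter within a row has no meaning.

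The genes whose pattern over the 8 libraries was most like that of Hr were sought among 12664 genes that averaged 1 CPM or more and have a proper symbol, by Pearson's r of log2 CPM. They were Slc30a3 (r = 0.995), Mfap3l (0.994), Brinp1 (0.989), Tet1 (0.989) and Zyg11b (0.987). As the 8 libraries form 2 groups that are far apart for Hr, r mostly reflects a step between the groups with little spread within them, and it is given without a test. The size of the step was much smaller than that of Hr: the log2 fold changes were 0.95, 0.87, 1.11, 0.45 and 0.31.

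Slc30a3, a zinc transporter of synaptic vesicles, overlaps 2 other genes (80.7% of its body is free) and was at 37.6 ± 3.93 and 72.9 ± 1.74 CPM, and Brinp1, a neuronal protein that restrains the cell cycle, at 147 ± 10.5 and 317 ± 25.7 CPM (SD, n = 4 each). Tet1, which oxidises methylated cytosine in DNA, was at 57.7, 57.8, 54.3 and 52.0 CPM in PTU mice 9 to 12 and at 74.2, 74.8, 77.1 and 76.2 CPM in PTU+TH mice 13 to 16. All 4 libraries with TH were above all 4 without for each of the 5 genes. They were picked for following Hr in this comparison, so these values are descriptions as well.

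**Figure D5:**
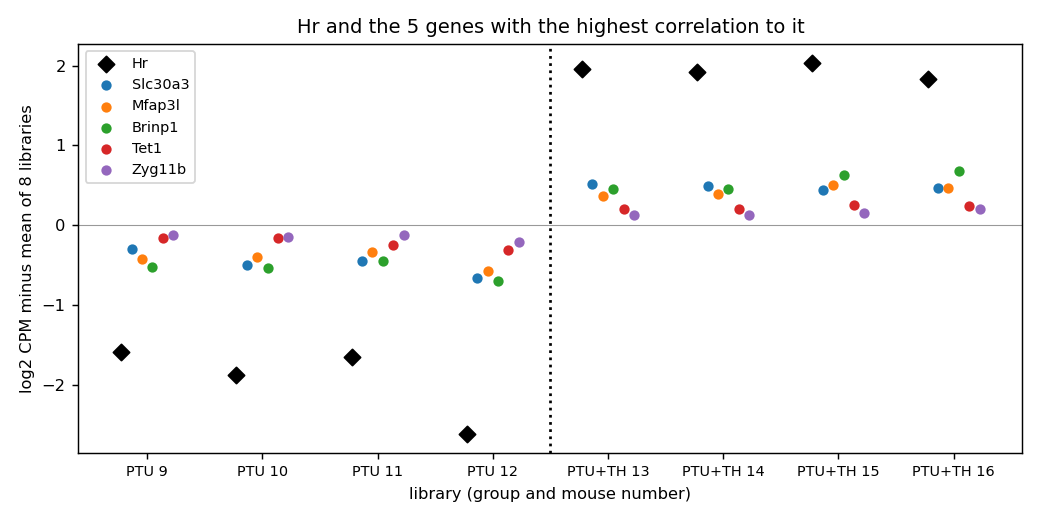
Log2 CPM minus the mean over the 8 libraries (vertical axis) of Hr (black diamonds) and the 5 genes with the highest Pearson's r to it, by library (horizontal axis). All 6 genes lie below 0 in each PTU library and above 0 in each PTU+TH library, with the widest step for Hr.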

How the data were processed

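RNA was taken from sorted nuclei of single cortices, amplified with SMART-Seq v4, made into libraries with Nextera XT and read single-end on a NextSeq 500, per the labels' protocols. The authors deposited raw counts of reads per gene symbol, 1 file per library. Bowtie2 2.5.3 and build mm10 (GRCm38) are named in the submitters' processing notes; the counting program, annotation, strand and introns are not given in the sources used here. The 55341 symbols equal those of GENCODE M21, which gave positions and lengths.

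Groups came from the sample titles. Counts were fitted over all genes with edgeR 4.0.16 in R 4.3.3 (filterByExpr, TMM scaling, robust quasi-likelihood test, group only, two-sided, Benjamini-Hochberg). CPM were computed here from the deposited counts with TMM scaling, and the standard error is the log2 fold change over the square root of F. The p-values set the group difference against the spread between mice within the groups. The labels do not give litters, so a difference between litters cannot be told apart from one due to TH. In simulated data for this comparison with 17355 genes, 200 genes were given a true change, and the test found 64.5% of them at a log2 fold change of 1, 33% at 0.58 and 90% at 2, with 7 to 8 false calls (0 where no gene was changed). Alternatives were RLE size factors, library totals, DESeq2 1.42.0, no count filter, and leaving out single libraries or mice 15 and 16.

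The members and lists were chosen with earlier results of these data known. Named genes are the 4 members, listed genes that were called or else had the largest change or highest CPM in their list, tested neighbours of Hr, called neighbours of the others, and the 5 genes with the highest r to Hr, among those with a proper symbol and at least 1 CPM (log2 CPM with a prior count of 2). 1 listed gene that this rule names is not reported here.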

Additional observations from a re-analysis of the deposited data

Results flagged for a closer look

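For the genes named here, 74 sets of 4 values were searched for a library that stood apart from its group. Chance alone gives about 5% of such sets, or 3.7, and 6 turned up. Jmjd1c had 249.6 CPM in PTU+TH mouse 15, while the remaining libraries of that group had 267 to 269. Kdm6b had 29.2 CPM in PTU+TH mouse 14, with its group otherwise between 24.4 and 24.9. For Sostdc1, PTU mouse 9 had 1.57 CPM where the group otherwise held 0.30 to 0.41. For Piwil2, PTU mouse 12 had 2.23 CPM where 0.95 to 1.09 was found otherwise. PTU mouse 10 was apart for 2 genes. Reep4 had 9.41 CPM there, above a range of 4.06 to 4.95, and Thra had 147.7 CPM, below a range of 160.2 to 161.6.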

How the results depend on the processing

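No paired analysis was possible because no number is shared by PTU mice 9 to 12 and PTU+TH mice 13 to 16. Across 13 alternatives the log2 fold change of Hr stayed between 3.70 and 4.01, that of Kdm3a between -0.29 and -0.12, that of Jmjd1c between 0.07 and 0.20 and that of Kdm3b between -0.08 and 0.06. Of all genes, 368 were called (258 higher, 110 lower), beside 721 with DESeq2 (439 and 282, so 60.9% higher against 70.1%) and 58 without mice 15 and 16 (52 and 6, 89.7% higher), a fit with fewer mice; leaving out single libraries gave 182 (without PTU+TH mouse 15) to 499 (without PTU mouse 9). The count also fell by over 1.5 times without PTU mouse 12 (233) and PTU+TH mice 13 (238), 14 (227) or 16 (209). The other JmjC proteins had 1 call with DESeq2 and 1 without a count filter, both Kdm6a, and the receptor list 2 with DESeq2. Neighbouring genes had 2 calls with DESeq2, Lgi3 and Reep4, and 1 to 2 when single libraries were left out, 2 without PTU mouse 10. Per kb of exon, Hr ranked 4 of 4 in PTU+TH in place of 2. The cause of these shifts was not tested. Hr in PTU rests on 24 to 61 counts, the fewest of the 4 family genes.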
